A study of Mus musculus with 6 samples.

Results

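The genes described here are 9 secreted defence genes of the gut lining: the lectin genes Reg1, Reg3a, Reg3b, Reg3g and Reg4, the serum amyloid A genes Saa1, Saa2 and Saa3, and Lcn2, which encodes lipocalin 2. They were chosen by name, and all 9 were found among the 20594 genes of the deposited expression table. RNA came from colon of 3-week-old C57BL/6J mouse offspring, in 3 maternal DSS libraries and 3 control libraries. Dams of the maternal DSS offspring had received 1.5% dextran sulfate sodium (DSS), a sulfated polysaccharide that injures the colon lining, and dams of the control offspring 0% DSS. The sample labels place this exposure between embryonic days 13 and 19, whereas the series design text gives 5 days. The titles speak of 3 offspring, so a library may hold 1 animal or a pool, and no litter, dam or sex is given. P-values therefore measure the spread between these libraries, which may be partly technical or shared within a litter.

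Reg proteins are small secreted lectins. Reg3b and Reg3g are made by enterocytes and Paneth cells, bind bacteria and keep them away from the epithelium, and their expression depends on microbial signals that act through MyD88 and through the cytokine IL-22 and the factor STAT3. Serum amyloid A proteins are acute-phase proteins of the liver and of the gut epithelium that bind retinol and are induced by gut bacteria. Lipocalin 2 withholds iron from bacteria by binding their siderophores. It comes from neutrophil granules as well as from inflamed epithelium, and faecal lipocalin 2 is used as a marker of colitis.

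Both families lie in gene clusters (coordinates from RefSeq on GRCm38.p6, the assembly that mm10 names). Reg3b (chromosome 6, 78370885 to 78373466), Reg3a (78380709 to 78383839), Reg1 (78425983 to 78428668) and Reg3g (78466269 to 78468874) fall within 98 kb that hold 7 annotated genes. Saa3 (chromosome 7, 46711998 to 46719615), Saa1 (46740497 to 46743181) and Saa2 (46751833 to 46754313) fall within 42.3 kb. Reg4 is on chromosome 3 (98222138 to 98236748) and Lcn2 on chromosome 2 (32384637 to 32387739). The family members Reg2, Reg3d and Saa4 were not in the expression table, so they have no values here.

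The 200 bases before the annotated start are shown for 5 genes whose 3 highest levels were in the same libraries, and for Saa2, whose sequence is close to that of Saa1 while its listed level was far lower. Sequences are from RefSeq on GRCm38.p6 and run 5′ to 3′ on the gene's own strand. Capitals mark matches, on either strand, to a STAT motif (TTCNNNGAA), to the NF-kB consensus or to a C/EBP motif (TTGCNNAA).
Reg3b, chr6:78370685-78370884, plus strand: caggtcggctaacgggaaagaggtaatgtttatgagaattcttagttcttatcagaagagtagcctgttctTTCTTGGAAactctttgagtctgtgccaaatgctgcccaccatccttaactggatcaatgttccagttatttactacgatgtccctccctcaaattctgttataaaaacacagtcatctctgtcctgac
Reg3g, chr6:78468875-78469074, minus strand: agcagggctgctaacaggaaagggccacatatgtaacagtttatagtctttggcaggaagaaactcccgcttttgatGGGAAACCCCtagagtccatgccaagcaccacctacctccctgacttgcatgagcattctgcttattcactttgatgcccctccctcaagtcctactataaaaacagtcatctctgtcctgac
Saa1, chr7:46742981-46743180, minus strand: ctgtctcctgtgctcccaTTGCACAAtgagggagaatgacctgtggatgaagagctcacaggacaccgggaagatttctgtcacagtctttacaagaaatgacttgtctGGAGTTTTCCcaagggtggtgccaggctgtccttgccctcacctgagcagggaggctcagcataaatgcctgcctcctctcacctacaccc
Saa2, chr7:46751633-46751832, plus strand: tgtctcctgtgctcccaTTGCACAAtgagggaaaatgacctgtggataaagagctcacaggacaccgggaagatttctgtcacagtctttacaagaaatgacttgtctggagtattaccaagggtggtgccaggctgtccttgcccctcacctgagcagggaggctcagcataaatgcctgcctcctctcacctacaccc
Saa3, chr7:46715677-46715876, minus strand: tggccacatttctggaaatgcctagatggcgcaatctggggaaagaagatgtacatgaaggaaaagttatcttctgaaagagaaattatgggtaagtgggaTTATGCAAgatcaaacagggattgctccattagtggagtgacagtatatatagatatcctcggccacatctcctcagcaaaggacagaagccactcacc
Lcn2, chr2:32387740-32387939, minus strand: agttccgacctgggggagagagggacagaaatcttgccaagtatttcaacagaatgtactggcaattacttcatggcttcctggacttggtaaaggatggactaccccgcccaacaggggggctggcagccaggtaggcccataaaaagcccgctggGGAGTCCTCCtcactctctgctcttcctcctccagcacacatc

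Motifs were searched in the 250 bases before the start, and a match is a run of letters, not a shown binding site. The STAT motif was found for 1 of the 9 genes, Reg3b, between 129 and 121 bases before the start, and in 7.02% of 32851 RefSeq promoter windows of that length. The NF-kB consensus was found for 3 of the 9, Reg3g, Saa1 and Lcn2, and in 9.55% of the windows. A C/EBP motif was found for 5 of the 9, Reg3a, Saa1, Saa2, Saa3 and Lcn2, and in 9.56% of the windows. The C/EBP match of Lcn2, from 216 to 209 bases before the start, lies outside its printed stretch. For Reg4, Saa1 and Saa3 the start used for the windows lies inside the annotated gene. The windows of Saa1 and Saa2 were 95.6% identical, with 11 substitutions over 249 aligned bases, and 2 of these fall inside the NF-kB match of Saa1. The windows of Reg3b and Reg3g were 70.04% identical.

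Maternal DSS 2, maternal DSS 3 and control 3 held the 3 highest levels of 7 of the 9 genes, while maternal DSS 1 lay near controls 1 and 2. The same 3 libraries were the highest for 13.5% of all tested genes. Of the 7, Reg1 and Saa2 were at low levels. Reg3b and Reg3g, the antibacterial lectins, had the widest swings, and Saa1 and Saa3 followed the same libraries over a narrower range. Reg4 alone had all maternal DSS libraries above all controls, as had 4.92% of all tested genes. No gene of the 9 passed an adjusted p of 0.05 in limma, fitted to log2(FPKM + 1) over 13594 genes. FPKM is the fragment count scaled by transcript length and by library total. In whole tissue, more cells of a type cannot be told apart from more RNA per cell.

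In that fit 0 of 13594 genes (0%) passed the adjusted threshold, with a smallest adjusted p of 0.49 in limma, while an unadjusted p under 0.05 was found for 1064 genes (7.83%), and 329 of these (2.42% of all tested) had higher levels in maternal DSS libraries. The filter, which asked for 1 FPKM or more in 3 or more libraries, kept 6 of the 9 genes and left out Reg1, Reg3a and Saa2. Among these 6, Reg4 alone had an unadjusted p under 0.05 in this fit. Positive differences were found for 5 of the 6, and for 40.3% of all tested genes. Reg3b and Reg3g had a log2 difference of at least 1, as did 0.243% of all tested genes, and the 6 genes had a median of 0.62 against -0.037 over all tested genes. With library weights estimated from the data in limma, 4933 genes (36.3%) passed, and among them were Reg3b (log2 difference 4.01, adjusted p = 0.011), Reg3g (3.07), Reg4 (0.53), Saa1 (1.03) and Saa3 (1.39). Those weights were 0.249, 5.47 and 0.454 for maternal DSS 1, 2 and 3 and 1.65, 2.19 and 0.448 for controls 1, 2 and 3, so maternal DSS 2 counted most and maternal DSS 1 least. Of the genes with an unadjusted p under 0.05, 562 of 1123 were higher with median-ratio scaling and 127 of 1215 after scaling to equal sums, which moved the median of all genes to -0.14.

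Libraries also differed in ways that the labels do not give. In colon tissue the colon epithelium markers were abundant in all libraries, with a summed level of 14843 to 16439 FPKM in maternal DSS libraries and 13074 to 13925 FPKM in controls. Car1 made up much of these sums, with 7014, 5450 and 7277 FPKM in maternal DSS libraries 1, 2 and 3 and 5632, 5088 and 4528 FPKM in controls 1, 2 and 3. Of the 15 markers, Krt20 alone had groups that did not overlap, with higher maternal DSS values, as had 4.92% of all tested genes. Over all tested genes, 13.5% had their 3 highest levels in maternal DSS 2, maternal DSS 3 and control 3, and 28.8% in maternal DSS 1, control 1 and control 2, so these sets of libraries stood apart across much of the transcriptome. Xist, the RNA of the inactive X chromosome, had 0.309, 28.1 and 0.562 FPKM in maternal DSS libraries 1, 2 and 3 and 0.0419, 0.192 and 30.6 FPKM in controls 1, 2 and 3. The Y-linked Ddx3y had 9.84, 0.0687 and 8.88 FPKM in maternal DSS libraries 1, 2 and 3 and 11.4, 12 and 0.0547 FPKM in controls 1, 2 and 3. Maternal DSS 2 and control 3 thus had the female pattern and maternal DSS 3 the male one, and the part of sex in the results below was not tested.

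Reg3b, which encodes a lectin that acts on gut bacteria, had 291, 2120 and 2282 FPKM in maternal DSS libraries 1, 2 and 3, against 146, 60.7 and 1731 FPKM in controls 1, 2 and 3. Maternal DSS 2 and 3 and control 3 were high, and the groups overlapped. In those 3 libraries Reg3b had rank 15 or 16 of all genes by FPKM, against ranks of 199 in maternal DSS 1, 378 in control 1 and 968 in control 2. It averaged 1564 ± 1106 FPKM in maternal DSS and 646 ± 941 FPKM in control libraries (SD, n = 3 each). The log2 difference of 2.16 (SE 1.29, 95% interval -0.86 to 5.19) did not pass in limma (adjusted p = 0.62). Its level spanned 5.21 log2 units over the 6 libraries, which 5 of 13594 tested genes exceeded, against a median of 0.38. Without control 3 the log2 difference was 3.56, and without control 2 it was 1.15, with an adjusted p of 0.49 and 0.995 in limma.

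Reg3g, which encodes a lectin active against Gram-positive bacteria, had 46.9, 332 and 382 FPKM in maternal DSS libraries 1, 2 and 3, against 56.8, 19 and 145 FPKM in controls 1, 2 and 3. Maternal DSS 2 and 3 were above every control, whereas maternal DSS 1 lay below control 1. The means were 254 ± 181 FPKM in maternal DSS and 73.6 ± 64.5 FPKM in control libraries (SD, n = 3 each), with a log2 difference of 1.73 (SE 0.94, 95% interval -0.49 to 3.94, adjusted p = 0.62 in limma). Of all tested genes, 15 had a wider range over the 6 libraries. Leaving out control 2 gave a difference of 0.99, and leaving out maternal DSS 1 gave 2.69.

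The ratio of Reg3b to Reg3g, both per transcript length, differed between libraries. The ratio was 6.2, 6.38 and 5.98 in maternal DSS 1, 2 and 3, and 2.57, 3.19 and 11.95 in controls 1, 2 and 3. The 3 maternal DSS ratios lay close together, although the level of Reg3b in them spanned 291 to 2282 FPKM, and the control ratios lay on either side of them. In control 3 Reg3b was thus high relative to Reg3g. The transcripts of the pair were 74.4% identical over 739 aligned bases, with a longest shared run of 35 bases.

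Reg3a and Reg1, neighbours of Reg3b in the cluster, were at low levels. Reg3a, whose human counterpart kills Gram-positive bacteria, had 0.385, 1.63 and 2.24 FPKM in maternal DSS libraries 1, 2 and 3, against 0.71, 0.332 and 0.49 FPKM in controls 1, 2 and 3. Only maternal DSS 2 and 3 exceeded 1 FPKM, so unlike Reg3b it was not high in control 3. Reg1, best known from the pancreas and regenerating epithelium, had 0.903, 0.971 and 0.965 FPKM in maternal DSS libraries, against 0.753, 0.511 and 1.18 FPKM in controls 1, 2 and 3. Its groups overlapped, and no library stood far from the others. Reg3a shares 74% and 69.8% of aligned transcript bases with Reg3b and Reg3g, which were far more abundant. Its longest shared run was 24 bases with either gene. How any shared reads were assigned is not stated in the sources used here, so the values of Reg3a are uncertain. In a fit with no filter on low values, the log2 differences were 0.60 for Reg3a and 0.12 for Reg1, with an adjusted p of 0.70 and 0.82 in limma.

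Reg4, a lectin gene of colonic secretory cells at the crypt base and of enteroendocrine cells, had 249, 310 and 430 FPKM in maternal DSS libraries 1, 2 and 3, against 218, 215 and 239 FPKM in controls 1, 2 and 3. Every maternal DSS library exceeded every control, by a narrow margin for maternal DSS 1. Such a separation towards higher values occurred in 4.92% of all tested genes. The means were 330 ± 92.2 FPKM in maternal DSS and 224 ± 12.9 FPKM in control libraries (SD, n = 3 each). The log2 difference was 0.52 (SE 0.19, 95% interval 0.08 to 0.96) with an unadjusted p of 0.026 and an adjusted p of 0.62 in limma. It was 0.41 after each library was scaled to the same sum, where the groups did not overlap either, and 0.31 without maternal DSS 3.

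Other genes of the cells that express Reg4 had no common direction. Of 11 tested enteroendocrine and deep crypt secretory genes, 5 were higher and 6 lower, where 40.3% of all tested genes were higher. The list had a median log2 difference of -0.0009 against -0.037 over all tested genes, and none passed in limma. The secretory lineage factor Spdef had 33, 33.4 and 37.3 FPKM in maternal DSS libraries against 39.2, 40.8 and 44.2 FPKM in controls. Atoh1, which commits progenitors to secretory fates, was likewise lower in all maternal DSS libraries, at 20.1 to 26 FPKM against 31.4 to 33.2 FPKM in controls. These were the 2 of the 11 genes whose groups did not overlap, with lower maternal DSS values, as in 9.14% of all tested genes. Both also had an unadjusted p under 0.05 in limma, as had 5.41% of all tested genes with that direction. The goblet cell genes Agr2 and Spink4 had log2 differences of 0.01 and 0.46, and the chromogranin genes Chga and Chgb 0.03 and 0.04.

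**Figure D1:**
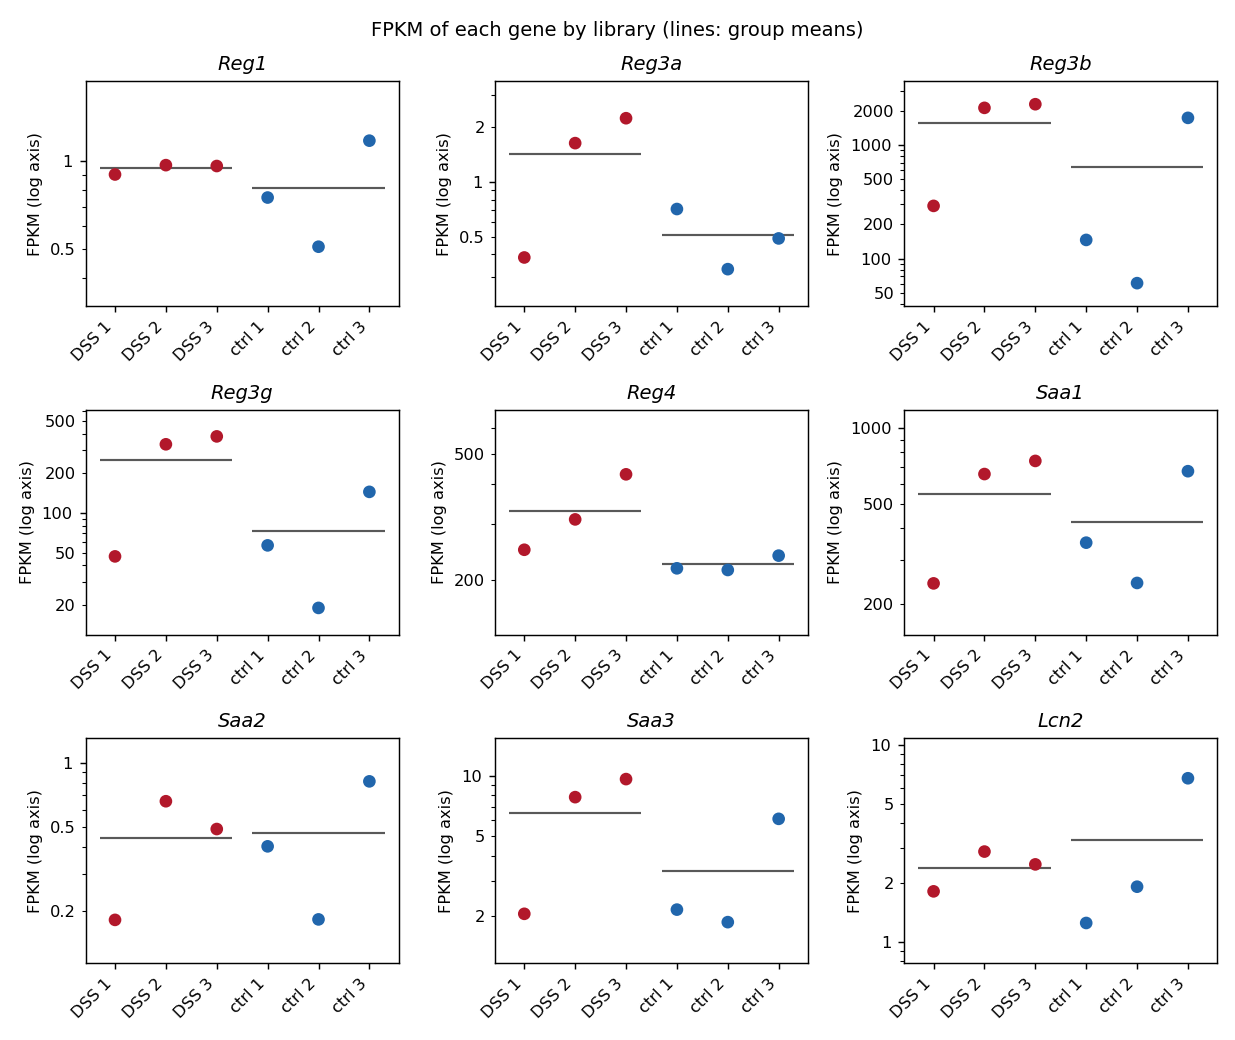
FPKM of each of the 9 genes by library on log axes, with maternal DSS libraries in red, control libraries in blue and lines at the group means. Maternal DSS 2, maternal DSS 3 and control 3 are the 3 highest libraries in 7 of the 9 panels, and in 13.5% of all tested genes. The groups separate for Reg4 alone, with higher maternal DSS values, as in 4.92% of all tested genes.

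Saa1, a serum amyloid A gene of the gut epithelium and liver, was, like Reg4, among the more abundant of the 9 genes by FPKM. It had 242, 657 and 740 FPKM in maternal DSS libraries 1, 2 and 3, against 351, 243 and 674 FPKM in controls 1, 2 and 3. Maternal DSS 2 and 3 and control 3 were again high, and maternal DSS 1 and control 2 were the lowest. Its mean was 546 ± 267 FPKM in maternal DSS and 423 ± 224 FPKM in control libraries (SD, n = 3 each), a log2 difference of 0.34 (SE 0.50, 95% interval -0.83 to 1.52, adjusted p = 0.81 in limma). Without control 2 the difference was 0.01, and without maternal DSS 1 it was 0.85.

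Saa3, a serum amyloid A gene of macrophages, adipocytes and epithelium, had 2.06, 7.81 and 9.6 FPKM in maternal DSS libraries 1, 2 and 3, against 2.16, 1.87 and 6.1 FPKM in controls 1, 2 and 3. The same 3 libraries were high and the others lay close together. Its log2 difference was 0.72 (SE 0.52, 95% interval -0.50 to 1.93, adjusted p = 0.66 in limma). Without maternal DSS 1 the difference was 1.27, and without maternal DSS 3 it was 0.37. Saa1 exceeded Saa3 by a factor of 117, 84.1 and 77.1 in maternal DSS 1, 2 and 3 and of 162, 130 and 111 in controls 1, 2 and 3, so the factor was lower in the libraries in which both were high.

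Saa2 was listed at 0.182, 0.658 and 0.487 FPKM in maternal DSS libraries 1, 2 and 3, against 0.404, 0.183 and 0.816 FPKM in controls 1, 2 and 3. Its 3 highest libraries were those of Saa1, and no library reached 1 FPKM. Saa1 exceeded it by a factor of 826 to 1521 over the 6 libraries. The transcripts of Saa1 and Saa2 were 94.4% identical over 606 aligned bases, with a shared run of 99 bases. Reads of the pair can be hard to tell apart, and how the authors assigned them is not stated in the sources used here, so the split between Saa1 and Saa2 is uncertain.

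Lcn2, the lipocalin 2 gene, had 1.8, 2.87 and 2.47 FPKM in maternal DSS libraries 1, 2 and 3, against 1.25, 1.9 and 6.75 FPKM in controls 1, 2 and 3. Control 3 was the highest library by far, and maternal DSS 2 and 3 lay above the remaining controls. The means were 2.38 ± 0.538 FPKM in maternal DSS and 3.3 ± 3 FPKM in control libraries (SD, n = 3 each), with a log2 difference of -0.14 (SE 0.42, 95% interval -1.13 to 0.85, adjusted p = 0.91 in limma). Without control 3 the sign turned and the difference was 0.39, with an adjusted p of 0.49 in limma.

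**Figure D2:**
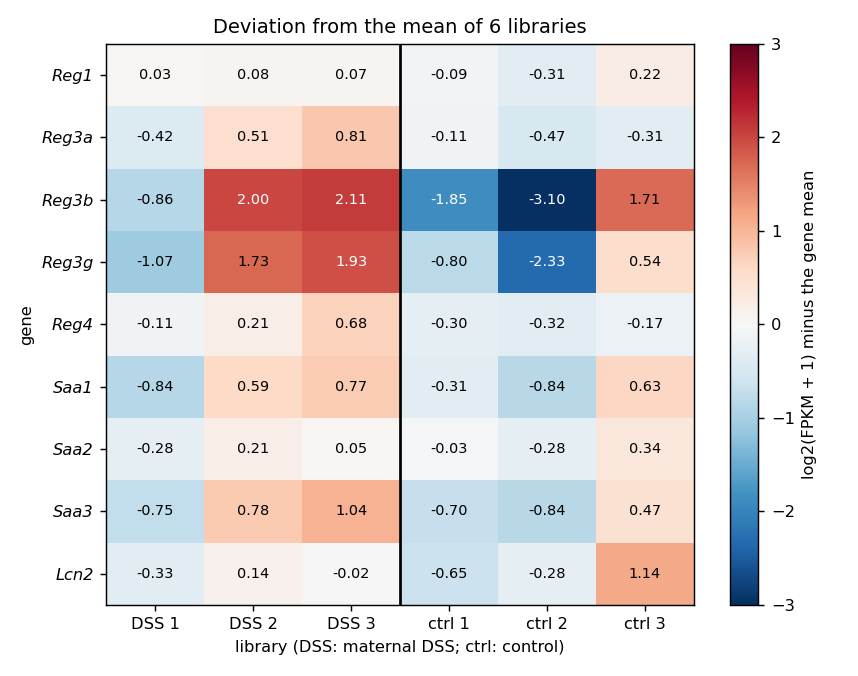
Deviation of each gene from its own mean over the 6 libraries, in log2(FPKM + 1), with maternal DSS libraries left of the line and control libraries right of it. Reg3b spans -3.10 in control 2 to 2.11 in maternal DSS 3, Saa1 and Saa3 share a pattern over a smaller span, and Lcn2 is high in control 3 alone, at 1.14.

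How alike the patterns were was measured by the root mean square difference of centred log2(FPKM + 1) over the 6 libraries. Because the libraries fell into separate sets, no correlation is given. Saa1 and Saa3 were the closest pair of the 6 tested genes (0.22), whereas Reg3b and Reg3g were 0.73 apart and Reg3g and Reg4 1.26 apart. Among all other tested genes, the closest to Saa1 was Ly6g (0.12), followed by Cyp2d10 (0.13) and the trypsin inhibitor gene Spink1 (0.17). The closest to Saa3 was Wfdc17 (0.16), and those closest to Reg3g were the lysozyme gene Lyz1 (0.59) and the mitochondrial tRNA gene TrnG (0.67). Reg4 was matched within 0.11 by Ms4a10, 1810065E05Rik, Apobec1, Rpl22l1 and the disaccharidase gene Sis. For Lcn2 the closest was Gpx3 (0.10), and for Reg3b Kap (1.17) and Spp1 (1.18), 3 genes that are abundant in kidney.

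**Figure D3:**
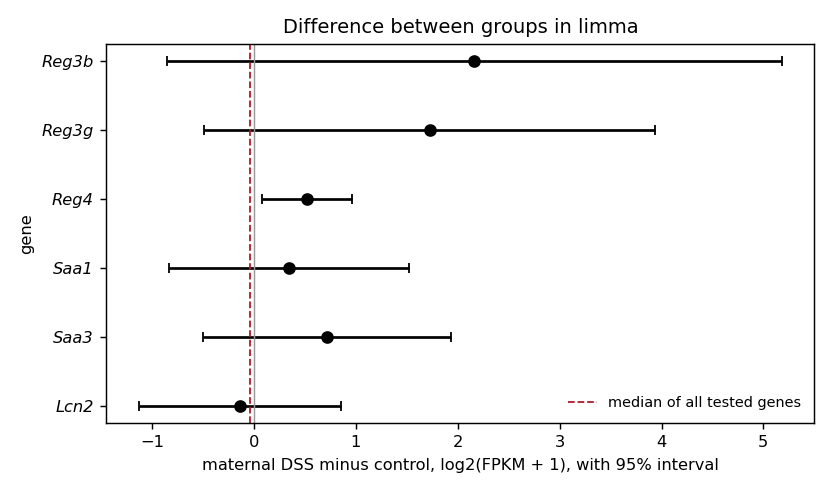
Log2 difference of maternal DSS minus control for the 6 tested genes, with 95% intervals from limma, and the median of all tested genes as a dashed line. The interval of Reg4, from 0.08 to 0.96, lies above 0, and those of the other 5 genes span 0.

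Kidney genes were therefore listed after this was seen, and their values stand beside Lcn2 and Reg3b. Of 24 genes listed, 12 were in the table, and all 12 had their highest value in control 3. The list holds 5 genes that had been picked by their likeness to Reg3b or Lcn2, which fixes much of that count and gave 296 of the 317 FPKM in control 3. The remaining 7 summed to 3.15, 6.23 and 5.46 FPKM in maternal DSS libraries 1, 2 and 3 and to 2.34, 2.34 and 21 FPKM in controls 1, 2 and 3. For all 12, the summed level was 44.3, 94.1 and 90.4 FPKM in maternal DSS libraries 1, 2 and 3 and 37.2, 46.7 and 317 FPKM in controls 1, 2 and 3. Kap had 0.617, 17.7 and 12.6 FPKM in maternal DSS libraries 1, 2 and 3 and 0.153, 0.161 and 96.1 FPKM in controls 1, 2 and 3, and Gpx3, a plasma glutathione peroxidase gene, had 36.9, 53.1 and 57.5 FPKM in those maternal DSS libraries and 31.8, 41.2 and 112 FPKM in those controls. None of the 12 was at 0 in any library. Kidney RNA as a part of the Lcn2 value in control 3 was not tested.

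The summed level of small intestinal markers was high in maternal DSS 2 and 3 but not in control 3, though not each gene followed. The 13 enterocyte markers in the table, none at 0, summed to 115, 260 and 255 FPKM in maternal DSS libraries 1, 2 and 3 and to 117, 86.3 and 107 FPKM in controls 1, 2 and 3. All 10 tested ones had positive log2 differences (median 0.59), as did 40.3% of all tested genes, and none passed in limma. The bile acid transporter gene Slc10a2 and the lipid transfer gene Mttp had an unadjusted p under 0.05, with log2 differences of 0.58 and 0.60. Slc10a2 had 50.6 FPKM in control 3, above the 48.2 FPKM of maternal DSS 1. Alpi went another way, with 29.5, 16.9 and 14.7 FPKM in maternal DSS libraries 1, 2 and 3 and 22.8, 22.8 and 11.9 FPKM in controls 1, 2 and 3. Fabp6, an ileal bile acid binding protein gene, had 2.08, 72.7 and 52.4 FPKM in maternal DSS libraries 1, 2 and 3 and 14.2, 1.84 and 7.11 FPKM in controls 1, 2 and 3. Apoa1, an apolipoprotein gene of enterocytes, had 0.839, 30.6 and 47.5 FPKM in maternal DSS libraries 1, 2 and 3 and 6.33, 0.646 and 0.899 FPKM in controls 1, 2 and 3. Of 6 Paneth cell markers in the table, 5 were tested, all with positive differences, as had 40.3% of all tested genes. They did not share an order of libraries. Ang4 had 56.6, 52 and 26.1 FPKM in maternal DSS libraries 1, 2 and 3 and 26.1, 46.6 and 22.9 FPKM in controls 1, 2 and 3. Pla2g2a was highest in control 3, at 2.5 FPKM. Lyz1 had 2.19, 16.7 and 28.5 FPKM in maternal DSS libraries 1, 2 and 3 and 2.94, 2.16 and 5.12 FPKM in controls 1, 2 and 3, and the protease gene Mmp7 had 1.05, 3.13 and 3.44 FPKM in those maternal DSS libraries and 0.551, 0.752 and 1.36 FPKM in those controls. The part of small intestinal tissue in the levels of Reg3b and Reg3g in maternal DSS 2 and 3 was not tested.

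**Figure D4:**
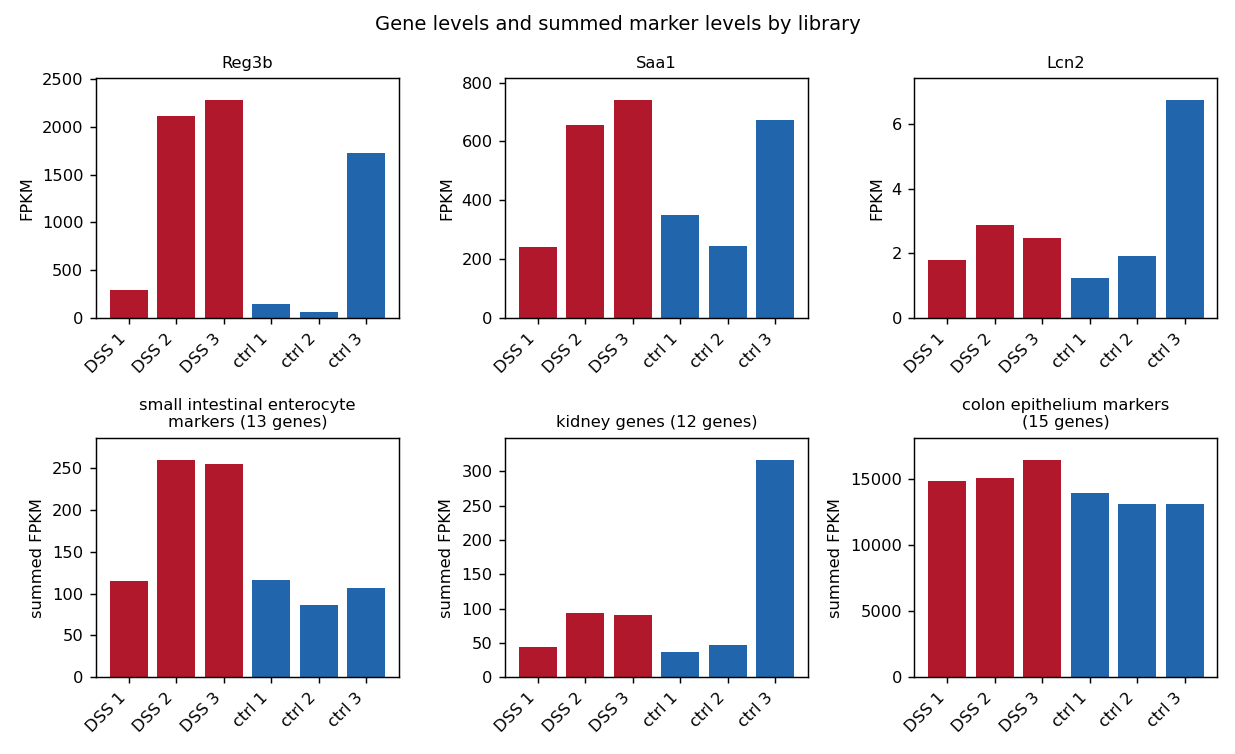
FPKM of Reg3b, Saa1 and Lcn2 and summed FPKM of 3 marker lists by library, with maternal DSS libraries in red and control libraries in blue. Small intestinal markers reach 260 and 255 FPKM in maternal DSS 2 and 3 and 107 FPKM in control 3, whereas kidney genes reach 317 FPKM in control 3.

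Other cells that make these proteins were looked for by their markers. Neutrophils, a source of lipocalin 2, had 5 of 12 markers in the table, and Csf3r, Ltf, S100a8 and S100a9 were at most 1.69 FPKM in every library. The remaining one, Ly6g, had 23, 69.8 and 71.9 FPKM in maternal DSS libraries 1, 2 and 3 and 39.3, 29 and 74.6 FPKM in controls 1, 2 and 3, the pattern of Saa1. Hepatocytes, a source of Saa1 and Saa2, had 7 of 10 markers in the table, and Alb was 0.566, 1.26 and 0.559 FPKM in maternal DSS libraries and 8.23, 0.616 and 0.567 FPKM in controls 1, 2 and 3. Of those not tested, Ahsg and Serpina1a were, like Alb, highest in control 1, at 1.78 and 0.573 FPKM. Apoh was highest in maternal DSS 1, at 0.461 FPKM. The 3 tested ones, Hp, Ttr and Cyp2e1, had their 3 highest levels in maternal DSS 2, maternal DSS 3 and control 3. Saa1 did so too, as did 13.5% of all tested genes. Hp had 3.86, 4.53 and 4.19 FPKM in maternal DSS libraries 1, 2 and 3 and 2.23, 1.84 and 6.27 FPKM in controls 1, 2 and 3, and the part of liver RNA in the level of Saa1 was not tested. Of 13 pancreatic acinar markers 2 were in the table, and they were Cela1, at 56.9 to 124 FPKM in maternal DSS and 80.2 to 98.6 FPKM in control libraries, and Cpb1, at most 1.12 FPKM.

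The summed levels of macrophage and adipocyte genes, of cells in which Saa3 is known, were also highest in the libraries with high Saa3, though not each gene followed: Pparg was highest in maternal DSS 1 and Cx3cr1 in control 2. The 12 macrophage markers summed to 161, 269 and 346 FPKM in maternal DSS libraries 1, 2 and 3 and to 161, 187 and 271 FPKM in controls 1, 2 and 3. Of these 12, 10 were higher, as were 40.3% of all tested genes, and none passed in limma. The 8 adipocyte markers summed to 165, 217 and 207 FPKM in maternal DSS libraries 1, 2 and 3 and to 132, 148 and 221 FPKM in controls 1, 2 and 3. Adipoq, the adiponectin gene, had 3.68, 12.3 and 10.2 FPKM in maternal DSS libraries 1, 2 and 3 and 3.98, 4.7 and 11.5 FPKM in controls 1, 2 and 3. Their part in the level of Saa3 was not tested.

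The receptors and signal carriers upstream of the Reg and Saa genes showed small differences. Of 16 tested genes of the IL-22, IL-17 and STAT3 list, 3 were higher and 13 lower, where 59.7% of all tested genes were lower, with a median log2 difference of -0.10 against -0.037 over all tested genes. None passed in limma, and 4 had an unadjusted p under 0.05, 1 higher and 3 lower, where 2.42% of all tested genes were higher and 5.41% lower at that p. The IL-22 receptor gene Il22ra1 had 10.5, 11.5 and 10 FPKM in maternal DSS libraries against 14.4, 12.6 and 12 FPKM in controls, without overlap. Il6st, the shared receptor chain of the IL-6 family, had 21.1, 20.2 and 15.8 FPKM in maternal DSS libraries against 22.7, 26.4 and 22.4 FPKM in controls, and Nfkbiz, a nuclear IkB gene, had a log2 difference of -0.34. Il17rc, a chain of the IL-17 receptor, went the other way, at 21.5, 27.5 and 27.5 FPKM in maternal DSS libraries against 20.2, 20.4 and 20.7 FPKM in controls. Groups did not overlap in 2 of the 16 genes with lower maternal DSS values, Il22ra1 and Il6st, and in 9.14% of all tested genes. With higher values they did not overlap in 1 of the 16, Il17rc, and in 4.92% of all tested genes. Stat3 itself had 24, 28 and 23 FPKM in maternal DSS libraries against 26.1, 26.6 and 28.8 FPKM in controls, and the IL-22 target Fut2 and the shared receptor chain gene Il10rb had log2 differences of -0.16 and -0.09. The cytokine genes Il22, Il6, Il17a and Il23a were also listed but were not in the table, so they have no values here.

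Microbe sensing genes were divided in direction. In the TLR, IL-1 and MyD88 list, 6 of 17 tested genes were higher and 11 lower, a share near that of all tested genes (median log2 difference -0.07), and none passed in limma. Myd88, the adaptor on which Reg3g depends, had 12.2, 12.2 and 13.9 FPKM in maternal DSS libraries against 12.1, 11.7 and 12.6 FPKM in controls, a span far narrower than that of Reg3g. The adaptor gene Tirap had 3.37, 3.66 and 3.61 FPKM in maternal DSS libraries against 4.77, 4.28 and 4.49 FPKM in controls, and Rela, an NF-kB subunit gene, had 10.8 to 11.5 FPKM in maternal DSS libraries against 12.4 to 12.6 FPKM in controls. Groups did not overlap, with lower maternal DSS values, in 4 of the 17 genes and in 9.14% of all tested genes. Besides Tirap and Rela these were the kinase gene Irak1, with a log2 difference of -0.14, and the RNA sensor gene Tlr3, with -0.07. Nfkb1 and Tlr1, among the more abundant of the list, had -0.07 and 0.14. Il18, an epithelial cytokine gene, had 22.9, 46.7 and 45 FPKM in maternal DSS libraries 1, 2 and 3 and 28, 25.5 and 38.8 FPKM in controls 1, 2 and 3, which are the high and low libraries of Reg3b.

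Among other mucosal defence genes 18 of 21 tested had positive log2 differences (median 0.24), as did 40.3% of all tested genes, and none passed in limma. Lypd8, which keeps flagellated bacteria off the colon epithelium, had 3460, 5999 and 6451 FPKM in maternal DSS libraries 1, 2 and 3 and 4165, 3546 and 5755 FPKM in controls 1, 2 and 3. The peptidoglycan-binding Zg16 had 2396, 3327 and 3394 FPKM in maternal DSS libraries 1, 2 and 3 and 2619, 2665 and 3183 FPKM in controls 1, 2 and 3. Both had the 3 high libraries of Reg3b, over a much narrower range. Duoxa2, the maturation factor of an epithelial oxidase, had 2.95, 15.9 and 11.6 FPKM in maternal DSS libraries 1, 2 and 3 and 2.87, 3.89 and 12.4 FPKM in controls 1, 2 and 3. The cornified envelope gene Sprr2a1, which also encodes an antibacterial protein, had a log2 difference of -0.08. An unadjusted p under 0.05 was found for 3 of the 21, all higher, and with that direction for 2.42% of all tested genes. Itln1, the intelectin gene, had 0.997, 7.3 and 11.4 FPKM in maternal DSS libraries 1, 2 and 3 and 0.368, 0.778 and 1.71 FPKM in controls 1, 2 and 3, and the Paneth cell pentraxin gene Mptx2 had a log2 difference of 0.73. Retnlb, a goblet cell antibacterial gene, had another order: it had 130, 111 and 116 FPKM in maternal DSS libraries against 53.7, 70.5 and 88.2 FPKM in controls.

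Genes that handle the ligands of these proteins had no common direction. Of 10 tested genes for retinol handling and siderophore or iron transport, 7 were higher and 3 lower, where 40.3% of all tested genes were higher. The list had a median log2 difference of 0.05 against -0.037 over all tested genes, with none passing in limma. The 3 most abundant were the retinal dehydrogenase gene Aldh1a1, the iron exporter gene Slc40a1 and the retinol binding protein gene Rbp2, with log2 differences of 0.15, -0.12 and 0.09. Slc22a17, which encodes a lipocalin 2 receptor, had 2.96, 2.21 and 2.42 FPKM in maternal DSS libraries against 2.53, 2.45 and 2.55 FPKM in controls. Lrp1, a receptor for retinol-loaded serum amyloid A, had a log2 difference of -0.27. The retinoic acid receptor gene Rara had 5.02, 4.31 and 4.61 FPKM in maternal DSS libraries against 6.34, 6.75 and 5.93 FPKM in controls, a log2 difference of -0.38 (SE 0.09, unadjusted p = 0.0035, adjusted p = 0.62 in limma). Its groups did not overlap, with lower maternal DSS values, as in 9.14% of all tested genes. An unadjusted p under 0.05 with that direction was found for 5.41% of all tested genes.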

How the data were processed

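RNA from 3 maternal DSS and 3 control colon libraries was analysed from 1 table of 20594 gene symbols. The deposited values are FPKM, per the file headers. HISAT2 2.1.0, StringTie 2.1.3b, Trimmomatic 0.38, FastQC 0.11.7, DESeq2 and the build mm10 appear in the submitters' processing notes, and which of them made the FPKM is not stated in the sources used here. Depth is unknown, since the values do not come in whole reads, and the smallest one above 0 is 1e-06.

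Genes that reached 1 FPKM in 3 or more libraries were fitted as log2(FPKM + 1) by group with limma 3.58.1 (R 4.3.3) with a mean-variance trend. P-values were two-sided and Benjamini-Hochberg adjusted over all tested genes, with a threshold of 0.05. The fit was tested on simulated data with known differences and no structure between libraries. That test therefore does not cover the sets of libraries that stood apart here. Fold changes on this scale understate those of low genes.

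The 9 genes and the gene lists were chosen with earlier results of these data known. From each list, genes were named for an unadjusted p under 0.05, for groups that do not overlap, or as 1 of the 3 most abundant, and for each of the 6 tested genes of the 9 the 5 most alike were taken. Marker lists are given mainly by their sums. Adipoq, Alb, Apoa1, Chga, Chgb, Cpb1, Csf3r, Cx3cr1, Duoxa2, Lrp1, Ltf, Myd88, S100a8, S100a9 and Slc22a17, and the kidney, hair follicle and sex-linked genes, were named after their values were seen. Alternatives were another pseudocount, filter and scaling, a replicate block, library weights and leaving out each library.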

Additional observations from a re-analysis of the deposited data

How the results depend on the processing

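The number of genes past the adjusted threshold in limma, 0, was also 0 with a pseudocount of 0.1, with no filter or one of 5 FPKM, with median-ratio or equal-sum scaling and with the replicate block. It was 4933 with library weights and 0 to 10 when 1 library was left out, the 10 arising without maternal DSS 1. The number with an unadjusted p under 0.05, 1064, was 677 with the filter of 5 FPKM, 6784 with library weights and 394 to 3349 when 1 library was left out, lowest without control 2 and highest without maternal DSS 1.

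Library weights, under which 36.3% of all tested genes passed, brought 5 of the 9 past the threshold in limma: Reg3b at a log2 difference of 4.01 (adjusted p = 0.011), Reg3g at 3.07 (0.011), Reg4 at 0.53 (0.011), Saa1 at 1.03 (0.024) and Saa3 at 1.39 (0.011). Lcn2, at -0.14 in the unweighted fit, turned to 0.38 with these weights and to 0.39 without control 3; the cause was not tested. Reg3b ranged from 1.15 to 4.01, Reg3g from 0.99 to 3.07, Reg4 from 0.31 to 0.71, Saa1 from 0.01 to 1.03 and Saa3 from 0.37 to 1.39 over 13 alternatives, and Lcn2 from -0.50 (without control 1) to 0.39.

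The labels number the replicates alike in both groups, but not all same-numbered libraries deviated together (r = 0.28, -0.38 and 0.40 over genes), so the numbers were not taken as pairs. Fitting the replicate number as a block gave 1678 genes with an unadjusted p under 0.05, 0 after adjustment, and left the log2 differences as they were, among them 2.16 for Reg3b. Under the block Reg3b (adjusted p = 0.40 in limma) and Saa3 (adjusted p = 0.40 in limma) joined Reg4 at an unadjusted p under 0.05, as did 12.3% of all tested genes. Not every library correlated best with its own number.

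Lcn2 has no value under the filter of 5 FPKM, and Reg1, Reg3a and Saa2 have values only where the filter or scaling admits them. Depth is unknown, so no counting error is given for the low values of Reg1, Reg3a, Saa2 and Lcn2.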

Other observations

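Tmem254a, Tmem254b and Tmem254c, near-identical copies between which reads may be divided, lay within 0.19 of Saa3, and Tmem254c had 22.2, 68.4 and 64 FPKM in maternal DSS 1, 2 and 3 and 24.4, 23.9 and 63.4 FPKM in controls 1, 2 and 3. Plac9a, with 11.1, 42.6 and 38 FPKM in maternal DSS 1, 2 and 3 and 10.2, 11.6 and 47.6 FPKM in controls 1, 2 and 3, was among the genes most like Reg3b. Lgals2, a galectin gene of the gut epithelium, was among those most like Reg3g, with 3.51, 32.3 and 38.3 FPKM in maternal DSS 1, 2 and 3 and 6.72, 3.99 and 5.89 FPKM in controls 1, 2 and 3. Retnla, Napsa, Slc27a2 and Gm12013 lay within 0.28 of Lcn2 and, like it, were highest in control 3.

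Hair follicle genes were listed after the values had been seen. All 12 were in the table and 11 of them were highest in control 3. They summed to 14.5, 10.1 and 22.2 FPKM in maternal DSS 1, 2 and 3 and to 12.3, 11.9 and 64.4 FPKM in controls 1, 2 and 3.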
